A study of Mus musculus with 8 samples.

Results

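This account is about 10 genes of the mesenchymal cytoskeleton in mouse bone marrow stromal cells (BMSCs), out of 21883 protein-coding genes annotated by RefSeq on chromosomes 1 to 19, X and Y. The genes are Vim, Acta2, Actb, Actg1, Tpm1, Tpm2, Cnn1, Cnn2, Tagln and Myh9. They were picked by name with their H3K36me3 peak coverage already known, including the fact that several had no coverage in one kind of peak list, so their values are a description and carry no test. The study used chromatin immunoprecipitation followed by sequencing (ChIP-seq) to map trimethylation of lysine 36 of histone H3 (H3K36me3) in cells with and without Setd2. Both groups were BMSCs from C57BL/6J mice homozygous for a floxed Setd2 allele (Setd2 fl/fl), at passage 2. KO cells received a lentivirus carrying Cre, which deletes the floxed part of the gene, and WT cells received a lentivirus carrying GFP. Both had 4 days of puromycin selection (2 µg/ml) before fixation for 10 min in 1% formaldehyde. For each genotype there were 2 libraries of H3K36me3, 1 of Input chromatin taken without antibody and 1 of a non-specific IgG. The labels give no separate cultures or animals for the 2 libraries of a genotype, so the spread between them may be technical.

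The data are 8 lists of H3K36me3 peaks, since the authors called each of the 4 H3K36me3 libraries once against the Input and once against the IgG library of its genotype. Coverage is the percent of a gene's annotated span (GRCm38) that lies under peaks. The lists against Input held 122589 and 159459 peaks in KO and 242745 and 246258 in WT. The lists against IgG held 81376 and 104117 peaks in KO and 202303 and 205303 in WT. Because the lists carry no read counts, the depth behind them is unknown, and the number and width of peaks both depend on it. Setd2 itself had 0.690% and 1.70% coverage in KO and 66.4% and 60.5% in WT against Input, which measures the mark over the gene and not the deletion.

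H3K36me3 is placed on the bodies of transcribed genes by Setd2, which travels with elongating RNA polymerase II, and it accumulates towards the 3′ end of a gene. Stromal cells are spindle-shaped, adherent cells with prominent actin bundles and a network of vimentin filaments. Actin filaments are stabilised by tropomyosins, bound by the calponin family and pulled together by non-muscle myosin II, and many of these genes are known targets of serum response factor (SRF), which binds the CArG box.

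Over the 10 genes, median coverage against Input was 8.28% in KO and 60.8% in WT, and the median difference, KO minus WT, was -51.1 percentage points. In 10 of 10 genes both KO libraries lay below both WT libraries, against 94.8% of the 10806 genes that averaged 10% or more over the 4 libraries. However, Acta2, Tagln, Actb and Actg1 turned to a higher KO mean once each library was scaled to the same mean coverage over all genes. On that scale 2153 of the 10806 tested genes had a higher KO mean. The median difference was then -6.38 points in the 10 genes and -16.7 points over all tested genes. Unscaled, all 10806 tested genes had medians of 2.51% in KO and 50.6% in WT and a median difference of -47.7 points. The limma fit over all those genes called 92.6% of them lower in KO at an adjusted p under 0.05. It also called 10 of the 10 genes lower, a count that the choice of genes had used. With a library left out, when the lone library of a genotype is assumed to vary like the pair of the other, it called 8 of them without KO replicate 1 (82.8% of all tested genes), 8 without KO replicate 2 (85.7%), 4 without WT replicate 1 (80%) and 5 without WT replicate 2 (81.3%). These counts too rest on the values that chose the genes. After scaling it called 4 of the 10 lower (45.2% of all tested genes) and Tagln higher (2.42%). Fewer cells carrying the mark and less of the mark per cell cannot be told apart in these bulk samples.

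**Figure D1:**
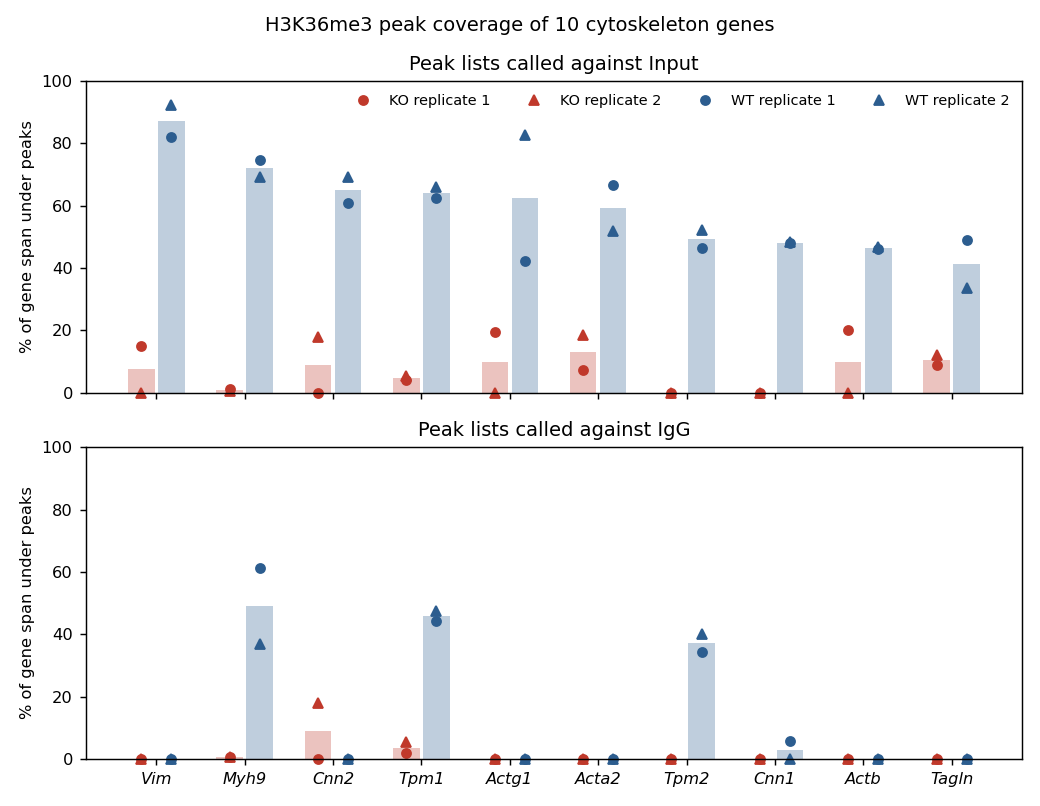
Percent of each gene's span under H3K36me3 peaks (y axis) for the 10 genes (x axis, ordered by WT mean against Input), with lists against Input above and lists against IgG below. Points are single libraries (circles replicate 1, triangles replicate 2), bars are means of 2 libraries, KO in red and WT in blue; against Input the KO points reach at most 19.99% and the WT points at least 33.6%, whereas against IgG most genes lie at 0 in both genotypes.

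Vim, on chromosome 2 from 13574311 to 13582826, encodes vimentin, the intermediate filament protein of mesenchymal cells. Its coverage against Input was 15.1% and 0% in KO and 82.2% and 92.2% in WT. KO averaged 7.55% ± 10.7 and WT 87.2% ± 7.07 (SD, n = 2 each), the largest difference of the 10 genes at -79.6 points. The WT libraries held 6 and 5 peaks of 426 to 3557 bp that together left few gaps between the start and the end of the gene. KO replicate 1 held a peak of 769 bp over the start and another of 574 bp near the end, and KO replicate 2 held none. Vim had 0% in all 4 libraries against IgG.

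The Vim start site stood apart in these lists. In the window from 250 bases before to 50 bases after the start, peaks against Input covered 35.7% and 0% in KO and 67.3% and 20% in WT, and no peak touched it against IgG. None of the other 7 genes with a promoter in RefSeq had a covered base in that window in any of the 8 lists. Over all 21262 promoter windows, 1.87% and 2.23% in KO and 3.35% and 3.28% in WT had at least 1 covered base against Input. The 250 bases before the Vim start are shown because the KO peak of replicate 1 reaches into them (RefSeq, GRCm38.p6, chr2:13574061-13574310, plus strand). Capitals mark the 57 bases under that peak, which hold the letters TATAAA from position -32 to -27, counted back from the start.
Vim: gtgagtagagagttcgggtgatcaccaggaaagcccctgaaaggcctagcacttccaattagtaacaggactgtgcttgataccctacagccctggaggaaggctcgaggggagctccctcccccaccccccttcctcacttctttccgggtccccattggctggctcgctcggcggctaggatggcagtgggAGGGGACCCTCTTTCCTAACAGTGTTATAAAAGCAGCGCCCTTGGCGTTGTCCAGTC
On the same scale the first peak of WT replicate 1 began at position -152 and that of WT replicate 2 at -10.

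The actin genes differed among themselves in how much of the mark's area remained in KO and in how well the libraries of a genotype matched. Acta2, on chromosome 19 from 34240336 to 34255585, encodes smooth muscle alpha-actin, which is also made by contractile stromal cells. It had 7.23% and 18.7% coverage in KO and 66.6% and 51.8% in WT against Input, with means of 12.9% ± 8.08 and 59.2% ± 10.4 (SD, n = 2 each). The KO mean was the highest of the 10 genes, made of 2 and 6 short peaks of 374 to 708 bp. The WT libraries held 8 and 9 peaks of 299 to 2555 bp. The WT peaks also ran past the 3′ end, where 83.5% and 84.7% of the next 5 kb was covered, against 0% and 11.4% in KO. The upper edge of the lower neighbour Stambpl1 lies 2 bp beyond that end, so those 5 kb lie almost wholly within Stambpl1. Stambpl1 itself had 2.03% and 7.05% in KO and 39.1% and 32.2% in WT against Input. The coverage of those 5 kb cannot be assigned to Acta2.

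Actb, on chromosome 5 from 142903115 to 142907976, and Actg1, on chromosome 11 from 120345687 to 120348495, encode the cytoplasmic beta- and gamma-actins present in every cell type. Actb had 19.99% and 0% coverage in KO and 46.2% and 46.8% in WT against Input. Actg1 had 19.5% and 0% in KO and 42.2% and 82.8% in WT. In either gene the KO signal came from replicate 1 alone, as 2 peaks of 418 and 554 bp in Actb and 1 peak of 547 bp in Actg1. The Actg1 libraries of WT differed most of all the genes (62.5% ± 28.7, SD, n = 2), since WT replicate 1 held peaks of 575 and 609 bp and WT replicate 2 a single peak of 3106 bp across nearly the whole gene. The WT peaks of Actb lay in the lower part of its span and continued below it, where 73.0% and 33.5% of the next 5 kb was covered, against 0% in both KO libraries. Acta2, Actb and Actg1 had 0% in all 4 libraries against IgG, and their direction depends on scale, as given above.

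Tropomyosins are coiled-coil proteins that lie along actin filaments and govern which other proteins bind them. Tpm1, on chromosome 9 from 67022590 to 67049672, had 4.18% and 5.30% coverage in KO and 62.4% and 66.0% in WT against Input. Tpm2, on chromosome 4 from 43513726 to 43523583, had no peak in KO, and 46.5% and 52.2% in WT. The libraries of each genotype lay close together in both genes, and the difference between genotypes was -59.5 points for Tpm1 and -49.4 points for Tpm2. The KO peaks of Tpm1 were 2 per library, 504 to 844 bp wide, and all of them lay in the 3′ part of the gene without touching each other between libraries. Against IgG Tpm1 kept 1.86% and 5.30% in KO and 44.4% and 47.6% in WT, and Tpm2 had 0% in both KO libraries and 34.2% and 40.04% in WT.

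Calponins and transgelin are related actin-binding proteins, with Cnn1 and Tagln typical of smooth muscle and Cnn2 more widely expressed. Cnn1, on chromosome 9 from 22099221 to 22109221, had no KO peak and 47.9% and 48.3% coverage in WT against Input. The WT libraries reached nearly the same coverage with 6 peaks of up to 1131 bp in replicate 1 and 3 peaks of up to 2503 bp in replicate 2. Cnn2, on chromosome 10 from 79988600 to 79995400, had 0% and 18.01% in KO and 61.0% and 69.1% in WT. Each WT library covered it with a single peak, of 4852 bp in replicate 1 and 4699 bp in replicate 2. The authors' own scores of these 2 peaks, 530.9 and 577.1, were exceeded within their own list and these genes only by peaks in Tpm1 and Myh9.

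Tagln, on chromosome 9 from 45929628 to 45936058, had the lowest WT mean of the 10 genes against Input. Its coverage was 8.97% and 12.2% in KO and 49.0% and 33.6% in WT, a difference of -30.7 points. Each KO library held 1 peak, of 577 and 782 bp, and they overlapped by 419 bp. The WT libraries held 3 peaks and 1 peak, all in the lower part of the span, much of which the gene Pcsk7 overlaps. Pcsk7 itself had 5.99% and 5.76% in KO and 81.2% and 82.6% in WT. The WT coverage of Tagln thus cannot be told apart from that of its neighbour where the 2 genes overlap. Both KO peaks of Tagln lie wholly within the overlap, so the limit holds for all its KO coverage. It also holds for the shared 419 bp and for the direction of Tagln after scaling.

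Myh9, on chromosome 15 from 77760585 to 77842175, encodes the heavy chain of non-muscle myosin IIA and is the longest of the 10 genes at 81591 bp. It had 1.27% and 0.723% coverage in KO and 74.7% and 69.3% in WT against Input. KO averaged 0.997% ± 0.387 and WT 72.0% ± 3.87 (SD, n = 2 each). The WT libraries held 28 and 25 peaks, with widest peaks of 12787 and 14123 bp in the 3′ part. The KO libraries held 2 peaks and 1 peak of 495 to 590 bp. Against IgG Myh9 had 0.607% and 0.723% in KO and 61.3% and 36.9% in WT.

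**Figure D2:**
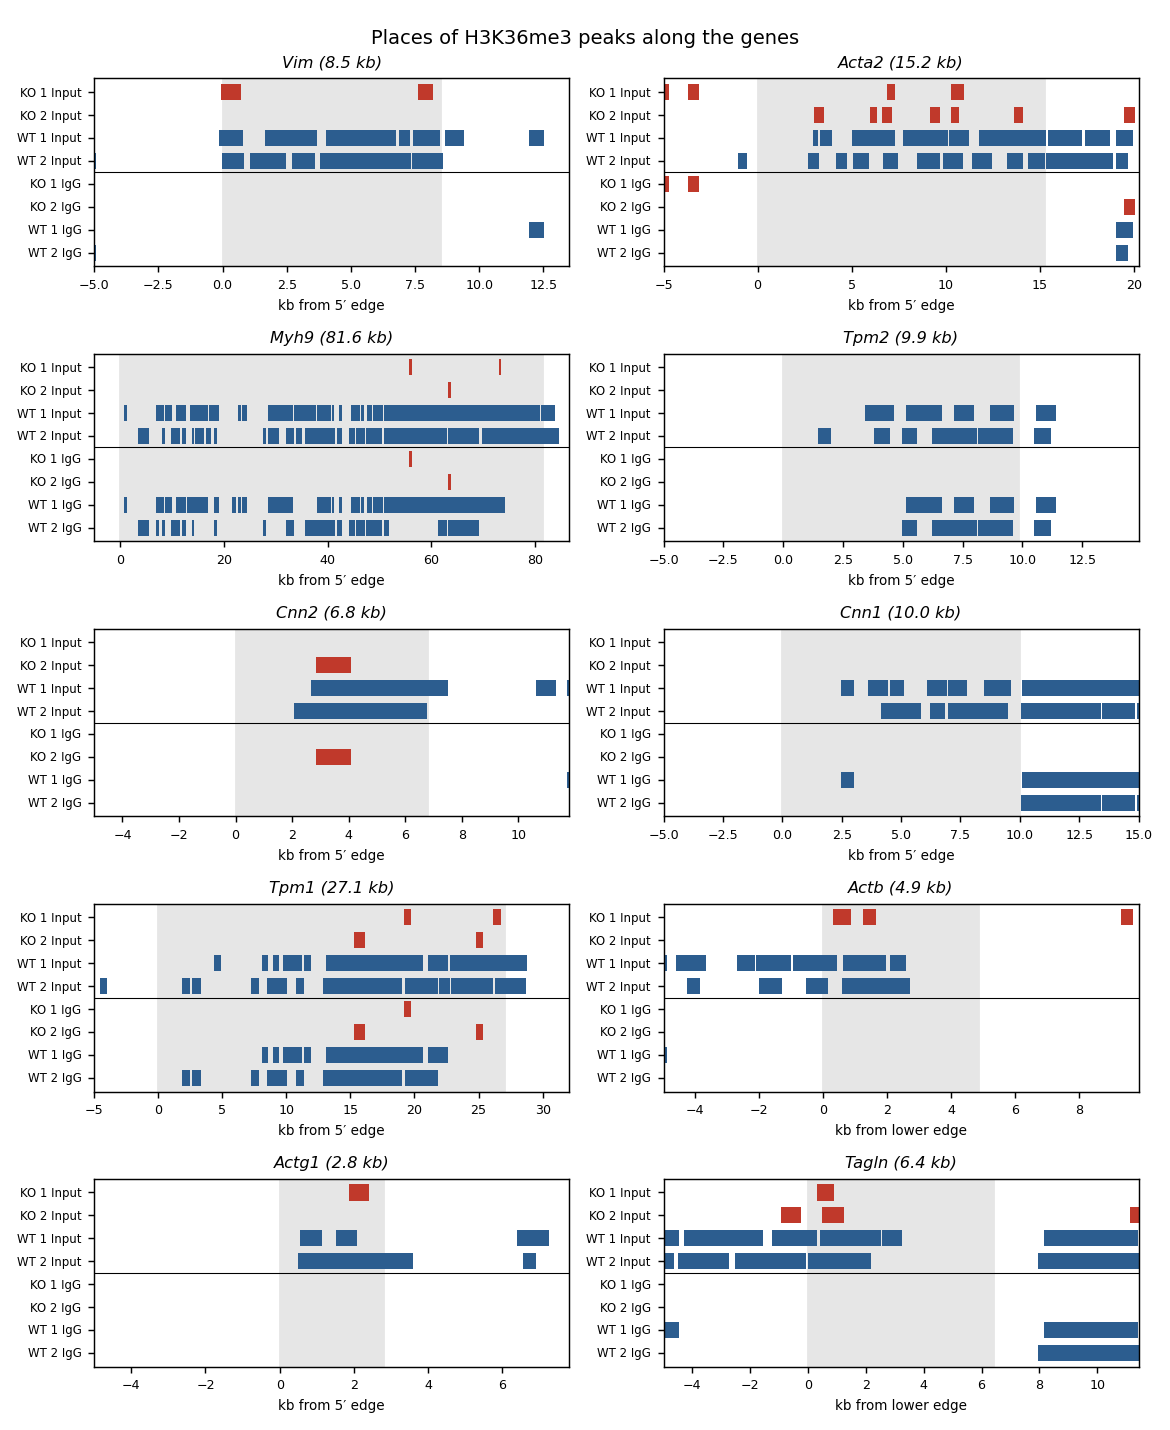
Places of H3K36me3 peaks along the 10 genes, with distance in kb from the 5′ edge of the gene (from the lower edge for Actb and Tagln, which had no strand) on the x axis and the 8 lists as rows, KO in red above WT in blue for each control. Grey marks the gene span with 5 kb on either side; KO peaks are short and scattered, and the WT rows of Vim, Acta2, Tagln, Cnn2, Actb and Actg1 are empty within the gene against IgG.

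Summed over the 10 genes, the lists against Input held 12 and 11 peaks in KO and 70 and 62 in WT. Their median width was 550.5 and 560 bp in KO and 1038.5 and 1069.5 bp in WT. Peaks overlapping any protein-coding gene had medians of 566 and 569 bp in KO and 746 and 722 bp in WT, so the KO peaks of the 10 genes were near the usual width and the WT peaks wider than usual. No KO peak in the 10 genes was wider than 2 kb, against 13 and 16 WT peaks. The span of 173202 bp was covered to 3.84% and 3.97% in KO and to 66.5% and 64.4% in WT, and all protein-coding spans together to 2.74% and 3.58% in KO and 20.1% and 19.4% in WT.

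The KO libraries seldom marked the same bases. Of the bases covered in either KO library within the 10 genes, 8.75% were covered in both, against 5.11% over all protein-coding spans, and the 1089 shared bases lay in Acta2 (670 bp) and Tagln (419 bp). The WT libraries shared 70.8% of their covered bases in the 10 genes and 49.2% over all spans. Between 90.1% and 98.7% of the bases covered in a KO library lay on bases covered in a WT library, whereas over all spans this was 30.4% to 32.5%. A larger covered share in WT, 66.5% and 64.4% of the 10 genes against 20.1% and 19.4% of all spans, goes with that difference, and its part was not tested.

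A peak of a given width covers a larger percent of a shorter gene, so KO coverage was also set beside gene length. Of the 10 genes, 4 had under 10% coverage in both KO libraries (Tpm1, Tpm2, Cnn1 and Myh9), against 91% of the 8814 genes with at least 25% coverage in both WT libraries. Among the 6 genes of 2 to 10 kb, only Tpm2 was under 10% in both KO libraries, against 86.3% of the 1964 such genes of that length. Among the 4 longer genes, Acta2, Tpm1, Cnn1 and Myh9, it was 3.

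The place of the peaks was compared in the 8 genes with a strand, after cutting each span into 10 equal bins from 5′ to 3′. Mean coverage against Input in bins 1 to 5 was 3.55% in KO and 42.4% in WT, and in bins 6 to 10 it was 7.69% in KO and 84.5% in WT. The WT mean was higher in bins 6 to 10 than in bins 1 to 5 in 8 of 8 genes, against 91.6% of the 7205 genes with a strand and at least 25% WT coverage. Actg1 was the exception within a library, with 40.9% in bins 6 to 10 and 43.3% in bins 1 to 5 in WT replicate 1. Bin 1 averaged 5.23% in KO and 16.7% in WT. In that bin Vim alone was nearly filled, with 83.7% and 0% in KO and 91.8% and 98.6% in WT, and Myh9 followed with 0% in both KO libraries and 22.3% and 27.8% in WT. The remaining genes had 0% there except for 27.3% in Tpm1 in WT replicate 2.

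**Figure D3:**
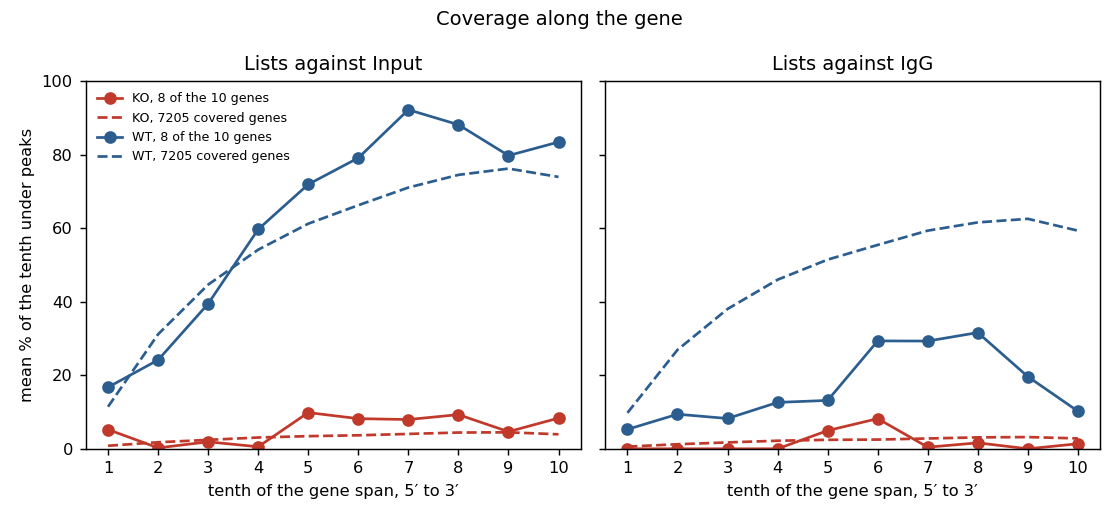
Mean percent of each of 10 equal bins under peaks (y axis) from the 5′ to the 3′ end (x axis) for 8 of the 10 genes (solid, points) and for 7205 genes with at least 25% WT coverage against Input (dashed), KO in red and WT in blue, lists against Input on the left and IgG on the right. Against Input the WT line of the 8 genes is highest in bin 7, at 92.2%, and ends at 83.4% in the last bin. Against IgG the same line ends at 10.2%, below the 59.3% of the other covered genes.

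The IgG lists gave another picture of the same libraries. Against IgG, coverage was 0% in both WT libraries for 6 of the 10 genes, namely Vim, Acta2, Tagln, Cnn2, Actb and Actg1, and this was among the values that chose them. Both KO libraries lay below both WT libraries in 3 of the 10 genes (Tpm1, Tpm2 and Myh9) against IgG. Over all protein-coding genes, with no filter on coverage, the share was 52.5%. That base is unlike the 10 genes, since 34.3% and 34.0% of all genes had 0% in the WT lists against IgG and could not qualify. The share among genes covered like the 10 against Input was not computed. A WT coverage of 0% in both libraries against IgG was also found in 1.38% of the 8814 genes with at least 25% WT coverage against Input, and in 4.79% of those of 2 to 10 kb. Of the 6 genes of 2 to 10 kb, 5 had none, and of the 4 longer genes, 1 had none. Cnn1 lay in between with 5.599% and 0% in WT and 0% in both KO libraries. Cnn2 had the reverse order against IgG, with 0% and 18.01% in KO and 0% in both WT libraries, because its KO peak of 1225 bp was in both kinds of list and its WT peaks were in the Input lists only.

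**Figure D4:**
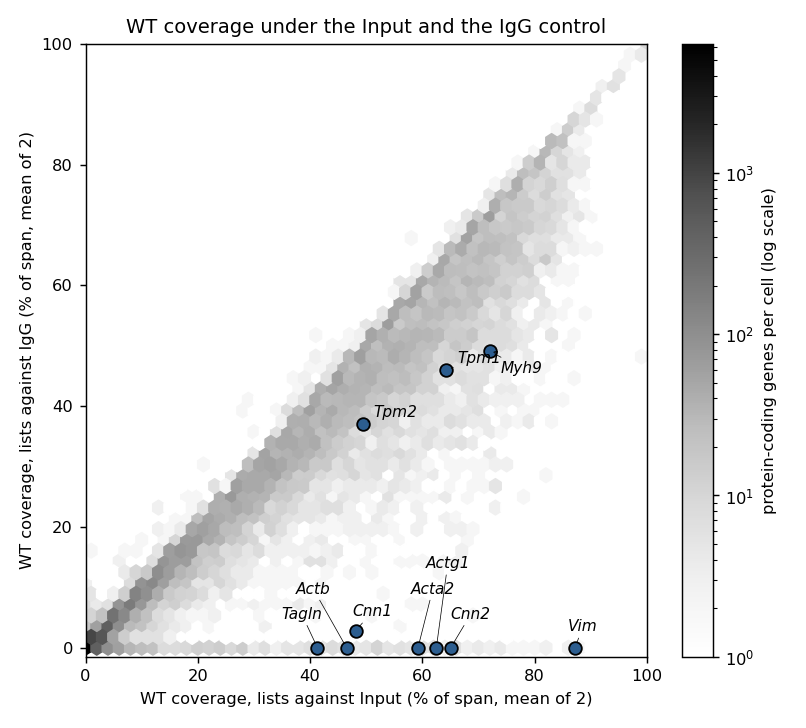
WT coverage against IgG (y axis) by WT coverage against Input (x axis), each in percent of the gene span as the mean of 2 libraries. Grey cells count protein-coding genes on a log colour scale and blue points are the 10 genes; 6 of the 10 lie on the floor of the plot, Cnn1 just above it, and Tpm1, Tpm2 and Myh9 below the main band.

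The presence of single peaks in both kinds of list was then counted. Of the Input peaks in the 10 genes, 2 of 12 and 4 of 11 in KO and 33 of 70 and 28 of 62 in WT had the same interval in the IgG list, or 16.7% and 36.4% in KO and 47.1% and 45.2% in WT. Over all protein-coding genes it was 66.8% and 65.3% in KO and 80.4% and 81.9% in WT. Within the WT lists against Input, the median score of the member peaks that the IgG lists lacked was 68.4 and 89.7, and that of the peaks they held was 49.4 and 60.5. In KO, with few peaks, the medians were 47.99 and 42.6 for those absent and 52.6 and 35.2 for those held. Scores of the absent WT peaks spread widely, down to 14.67 in Acta2 in WT replicate 1. Among those absent were the single Cnn2 peaks, the Actg1 peak of 3106 bp, the Vim peak of 3557 bp and a Myh9 peak of 14123 bp at its 3′ end.

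Tpm1 and Myh9 had WT peaks under either control, but fewer at the 3′ end against IgG. In the last bin of Tpm1, WT coverage was 100% and 95.2% against Input and 0% in both libraries against IgG. In the last bin of Myh9 it was 97.2% and 100% against Input and 8.27% and 0% against IgG. Other bins were lower against IgG as well, among them bin 2 of Tpm1 in WT replicate 1, with 22.0% against Input and 0% against IgG. Bin 7 of Myh9 in WT replicate 2 had 92.9% against Input and 28.8% against IgG. Some bins of Myh9 were higher against IgG. Bin 2 in WT replicate 1 had 79.7% against Input and 86.7% against IgG, and bin 1 in WT replicate 2 had 27.8% and 34.9%. The 5 kb past the 3′ end had 43.2% and 59.7% against Input in Myh9 and 33.5% and 31.9% in Tpm1, and 0% against IgG in both genes. Tpm2 went the other way, since WT bins 6 to 10 had 68.3% and 80.1% under either control, and it was bins 1 to 5, with 24.7% and 24.3% against Input, that had 0% against IgG. The IgG signal itself is not in the peak lists, so the part of the IgG library in these gaps was not tested.

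Most well-covered neighbouring genes had peaks against IgG as well. Of the 20 nearest protein-coding neighbours, 1 on either side, 14 had at least 25% coverage in both WT libraries against Input, and 14 of these 14 had at least 10% in both against IgG. Apol8, below Myh9, did not reach that coverage in both libraries against Input, with 12.8% and 9.13% in KO and 25.6% and 20.2% in WT, and it had 0% in all 4 libraries against IgG. Beyond the 3′ end of Cnn1, 98.5% and 96.0% of the next 5 kb was covered in WT under either control, while the gene itself had 5.599% and 0% against IgG. Above Tagln, 65.1% and 69.8% of the next 5 kb was covered in WT under either control. Fbxl18, below Actb, had 0% and 5.46% in KO and 56.3% and 56.9% in WT against IgG, and Fas, above Acta2, had 2.12% and 2.67% in KO and 65.1% and 52.4% in WT. The gaps did run past some genes. The 5 kb past the 3′ end of Acta2 lie almost wholly within Stambpl1. WT coverage there was 18.8% and 13.3% against IgG and 83.5% and 84.7% against Input. The 5 kb below Tagln, within Pcsk7, had 10.98% and 0% against IgG and 90.3% and 92.2% against Input in WT.

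The protein-coding genes of at least 2 kb whose coverage over the 8 lists came closest to the median of the 10 genes were Cfl1, Fkbp2 and LOC114841036. Their root mean square distance from that median was 2.14, 2.19 and 2.34 points. Cfl1, on chromosome 19, had 0% in both KO libraries and 56.9% and 59.7% in WT against Input, and 0% in all 4 libraries against IgG.

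Promoters of the 8 genes with an entry in RefSeq were read for 3 motifs on both strands of the 250 bases before the start. An exact match to the CArG box, the site bound by SRF, was found in Cnn2 and Actg1 and in 1.39% of the 21262 promoters. Sites that depart from it by a base or lie outside the 250 bases were not searched. The TATA motif (TATAAA) was found in Vim and Myh9 and in 11.6% of promoters, and the GC box (GGGCGG) in 5 of the 8 genes and in 42.6% of promoters. No match overlapped a match of another motif in these 8 promoters. The 2 promoters with a CArG box are printed as the only ones of the 8 with an exact match in that window. Neither had a covered base in any list. They are Cnn2 (chr10:79988350-79988599, plus strand, CArG box from -56 to -47) and Actg1 (chr11:120348496-120348745, minus strand, CArG box from -90 to -81), with the CArG box in capitals.
Cnn2: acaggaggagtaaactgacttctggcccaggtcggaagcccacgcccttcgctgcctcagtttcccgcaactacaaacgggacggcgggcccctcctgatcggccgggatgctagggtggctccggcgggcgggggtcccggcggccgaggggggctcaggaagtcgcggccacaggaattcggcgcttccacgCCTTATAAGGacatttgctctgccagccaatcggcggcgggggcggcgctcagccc
Actg1: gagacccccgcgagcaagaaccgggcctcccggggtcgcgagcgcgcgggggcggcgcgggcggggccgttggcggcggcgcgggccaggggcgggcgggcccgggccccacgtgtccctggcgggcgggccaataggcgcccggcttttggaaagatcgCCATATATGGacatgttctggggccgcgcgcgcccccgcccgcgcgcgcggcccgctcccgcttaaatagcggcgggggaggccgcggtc

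The genes of the same structures, 102 others in 8 lists, were read from the limma fit over all genes. Of these, 86 passed the filter on mean coverage, 85 were called lower in KO and 1 higher, against 92.6% and 0.555% of all tested genes. Their median difference was -50.0 points, against -47.7 over all tested genes, and scaling the libraries to the same mean coverage gave 55 called lower and 1 higher, with 9 genes higher in KO by sign. Without WT replicate 1 it was 71 genes called lower.

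Nearest to the 10 genes in function were the other actins, tropomyosins, calponins and myosins. Of the other actin isoforms, Actg2 of smooth muscle was the only 1 of 4 to pass the filter and was lower, with 2.15% ± 0.476 in KO and 24.2% ± 1.57 in WT (limma adjusted p = 0.00131). Acta1 of skeletal muscle had 16.9% and 19.3% in KO and 0% in both WT libraries against Input, below the filter on the mean. The tropomyosin and calponin family was lower in 5 of 5 genes. Tpm4 had 1.37% ± 1.93 in KO and 71.1% ± 11.2 in WT (limma adjusted p = 0.00108), and Tagln2 had 0% in KO and 44.4% ± 1.90 in WT (limma adjusted p = 0.000251). The myosin II list was lower in 7 of 7 tested genes of 9, with Myl6 at 0% in KO and 56.5% ± 20.3 in WT (limma adjusted p = 0.0102). Scaled, Myl9 and Mylk turned to higher in KO, without being called.

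The intermediate filament and lamin list held the only gene called higher. Krt18, a keratin of simple epithelia, had 21.0% and 25.4% in KO and 0% and 8.48% in WT (limma adjusted p = 0.0141). Krt18 was not called when any 1 library was left out, though without KO replicate 2 it fell below the coverage filter and was not tested. Lmna, the A-type lamin, was lower with 0% in KO and 41.1% ± 3.25 in WT (limma adjusted p = 0.000404), as were Lmnb2 and Plec, the plectin that links filaments to other structures, though Plec turned to higher by sign when scaled. Des, Nes, Gfap, Krt8, Lmnb1 and Synm did not reach the filter.

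Actin turnover and adhesion genes were lower in every tested case, in 21 of 21 tested genes of the 24 that nucleate and turn over actin and in 24 of 24 of crosslinking and focal adhesion. When scaled, Arpc1b, Ezr and Tns1 were higher by sign and none of them was called. Tln1, the talin that couples integrins to actin, had 2.76% ± 0.539 in KO and 83.5% ± 3.17 in WT (limma adjusted p = 0.000211). Cttn, cortactin of branched actin, had 5.06% ± 4.84 in KO and 81.4% ± 2.21 in WT (limma adjusted p = 0.000233). Among the regulators of small GTPase and SRF signalling 12 of 12 tested genes of 14 were lower, and 12 of 12 kept that sign when scaled. Srf had 0% in KO and 40.1% ± 0.835 in WT (limma adjusted p = 0.000248), and its coactivator Mrtfa 1.14% ± 0.442 in KO and 28.6% ± 0.870 in WT (limma adjusted p = 0.000596). The tubulins were lower in 12 of 12 genes, of which Tuba1b and Tubb4a were higher by sign when scaled. Tubb5 had 0% in KO and 68.1% ± 1.37 in WT (limma adjusted p = 0.000211).

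**Figure D5:**
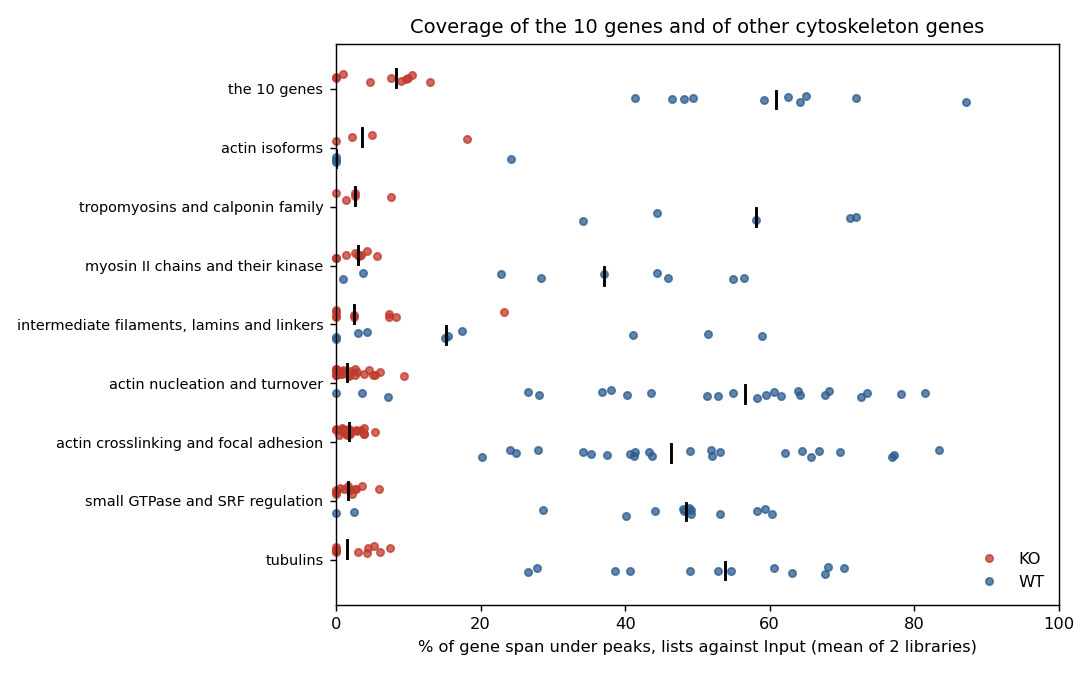
Coverage against Input in percent of the gene span (x axis, mean of 2 libraries) of the 10 genes and of the 8 lists of other cytoskeleton genes (rows), with 1 point per gene, KO in red above WT in blue, and black bars at the list medians. Nearly all KO points lie under 10%, and the points of Krt18 (23.2% in KO) and Acta1 (18.1% in KO) stand to the right of the others. After scaling, 9 of the 86 tested genes of the lists were higher in KO, among them Krt18, which was higher before scaling too. So were 4 of the 10 genes, against 2153 of all 10806 tested genes.

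Loss of IgG coverage was also seen among the wider lists. Of their 78 genes with at least 25% WT coverage against Input, 10 had 0% against IgG in both WT libraries. The share was 12.8%, against 1.38% of all such genes and 4.79% of those of 2 to 10 kb, the length of most of the 10. The 10 were Cfl1, Pfn1 and Flna, which turn over and crosslink actin, and the tubulin genes Tuba1a, Tuba1b, Tuba1c, Tuba4a, Tubb2a, Tubb3 and Tubb5. Flna, with 26394 bp, had 4.07% and 3.56% in KO and 67.4% and 63.9% in WT against Input, so the pattern was not limited to short genes.

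The marker lists, read from the peaks against Input, bear on which cells carried these peaks. Of 16 stromal markers, 12 had a mean WT coverage of at least 10%, led by Col6a1 and Col1a1, with Thy1 at 0, and the list averaged 1.08% and 2.01% in KO and 38.8% and 35.4% in WT. Of 14 haematopoietic markers, 11 did, led by Lyz2 and Cd68, with Cd79a, Cd3e and Ly6g at 0, and the list averaged 1.49% and 5.87% in KO and 21.0% and 27.2% in WT. Of 8 smooth muscle markers, 4 did, led by Smtn and Lmod1, and the list averaged 4.04% and 2.53% in KO and 19.9% and 18.9% in WT. Endothelial and striated muscle markers reached 10% in 1 of 8 genes each, with 6 of the 8 striated muscle markers at 0 in both WT libraries. Endothelial markers averaged 5.07% and 5.70% in KO and 5.43% and 5.40% in WT, and striated muscle markers 4.32% and 4.60% in KO and 2.15% and 1.93% in WT. Against IgG the leading markers differed. Lyz2 and Col1a1 had 0% in both WT libraries, whereas Cd68 had 37.0% and 71.3% and Col6a1 71.3% and 56.7%. The WT lists against Input thus held peaks over genes of blood cells as well as of stroma. The part of other cell types in the values of the 10 genes was not tested.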

How the data were processed

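H3K36me3 ChIP-seq peak lists of 2 KO and 2 WT libraries were used. The submitters' processing notes name Bowtie2, with no version, and GRCm38. Peak names start with MACS in the deposited lists, and the sources used here give no version or settings of the peak caller. The authors deposited a score for each peak, on an unstated scale, and scores were set beside each other only inside a list. A shared Input and a shared IgG library served both H3K36me3 libraries of a genotype.

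Coverage was the percent of the RefSeq span (GRCm38.p6) under peaks, overlap counted from 1 bp. KO minus WT was fitted with limma 3.58.1 in R 4.3.3 (trend and robust, statmod 1.5.0) in genes with a mean of at least 10%, with Benjamini-Hochberg adjustment over all genes tested and a threshold of 0.05. This step was checked on simulated data. Python 3.11.15, numpy 2.4.6, pandas 2.3.3 and matplotlib 3.10.9 did the rest. Strand came from the RefSeq promoter table, which has no entry for Actb and Tagln.

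The genes, the wider lists, the marker lists and the naming rules were chosen with earlier results of these data known. In the wider lists the 2 largest falls and the 2 smallest falls or rises per list could be named, other genes after their values were seen. The alternatives were the IgG lists, peaks at or above the median score of their list, peaks within 1 kb merged, spans widened by 2 kb, each library left out, no coverage filter or 25%, scaling to mean coverage, a replicate block, and peaks counted with most of their width inside. A table of merged peaks was not used here. A haematopoietic marker of the original list is not reported here. With no counts in the lists, no interval or detection limit could be given.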

Additional observations from a re-analysis of the deposited data

How the results depend on the processing

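Each of the 10 genes stayed lower in KO with score-filtered, merged and flank-widened peaks. With any 1 library left out the direction could not change, since both KO libraries lay below both WT libraries in each gene. Scaling turned Acta2, Tagln, Actb and Actg1 to higher, and the IgG lists turned Cnn2. Of all 10806 tested genes, 2153 had a higher KO mean when scaled. Of the 10, limma called 8 lower with the score filter, without Actb and Actg1, beside 8349 of all 8844 genes tested. It called 9 with widened spans (10275 of 10558 genes tested) and 9 with no filter (10698 of 18284), each without Actg1. The median difference of -51.1 points ranged from -56.1 to -48.7 with a library left out, was -64.1 with peaks within 1 kb merged, 0 against IgG and -6.38 after scaling to mean coverage. That scaling was added for the 10 genes after seeing the data. Both KO libraries lay below both WT libraries in 10 genes, 3 against IgG and 4 after scaling. The share of all tested genes after scaling was not computed, so that 4 has no background beside it. Over all genes, limma called 10010 lower and 60 higher. Lower calls were 5881 with the 25% filter, 4889 scaled and 7865 to 9594 with a library left out. Higher calls were 21 against IgG, 16 with the score filter, 39 with widened spans, 494 with no filter, 18 with the 25% filter, 261 scaled and 26 to 200 with a library left out. In the wider lists, lower calls were 47 with the 25% filter and 55 scaled, which tested fewer genes in the first case, and 71 to 84 with a library left out. Higher calls were 0 with widened spans and with the 25% filter, 3 with no filter and 0 with each library left out in turn. The cause of these moves was not tested beyond the number of genes tested. With the replicate number as a replicate block limma called 9990 genes lower and 60 higher, 85 and 1 in the wider lists, and 9 of the 10 genes, without Actg1. The deviations of same-numbered libraries had a correlation of -0.0032 over genes. With 2 libraries per genotype, that value cannot show whether the numbers pair anything. Of 160 coverage values of single genes under the alternatives, 36 moved by more than the spread (SD) between replicates. The 160 include the values with a library left out, which could not move by that much. Dropping a library shifts the mean of a genotype by less than that SD, or not at all. All 36 thus came from the other alternatives, and the count out of 160 is no measure of stability. Without read counts, an absent peak sets no upper limit on the signal of a gene.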
